A study of Homo sapiens with 6 samples.

Results

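A set of 10 genes of oxygen sensing was followed in T24, an established cell line of epithelial origin from a human bladder tumour. They are the hypoxia-inducible factor (HIF) subunit genes HIF1A, EPAS1 and ARNT, the oxygen sensor genes EGLN1, EGLN2, EGLN3 and HIF1AN, the HIF ubiquitin ligase gene VHL, and the membrane carbonic anhydrase genes CA9 and CA12. The 10 genes were chosen by symbol as a pathway group, with the difference between si-KNSTRN and si-NC cells in these same libraries already known. Their differences in that contrast are therefore given as a description, without a p-value. All 10 were found among the 20442 genes of the deposited count table, and all 10 were among the 12650 genes with enough reads to be tested. Each of the 10 had all 3 libraries of either group past the count filter.

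The cells received a small interfering RNA (siRNA) for 24 h, either si-KNSTRN, directed at the mitotic spindle gene KNSTRN, or the negative control si-NC. There were 3 RNA-seq libraries per treatment, which the submitters call biological replicates. Both groups were the same cell line, attached for 24 h before the siRNA and grown in serum-containing medium in a CO2 incubator. The labels give no oxygen setting. The siRNA sequences and their number were not given in the sources used here. T24 descends from a single tumour, so the replicates are cultures and not patients.

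In oxygenated cells the EGLN enzymes, also called PHD proteins, hydroxylate prolines of the HIF alpha subunits, and the VHL ligase then marks these subunits for destruction. HIF1AN, also called FIH, hydroxylates an asparagine of the alpha subunits and so keeps coactivators away. When oxygen is short, the alpha subunits HIF1A or EPAS1 (HIF-2 alpha) persist, pair with the beta subunit ARNT and bind a short core sequence, the hypoxia response element, at genes such as CA9, EGLN3 and those of glycolysis. Much of this control acts on protein stability, which RNA counts do not measure.

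The libraries held 16386799 to 20596074 counted reads. Library 3 of si-KNSTRN stood apart from its group, with a chi-square per degree of freedom of 10.3 and 6.98 against libraries 1 and 2, which differed from each other by 2.60. The target gene KNSTRN fell to 32.4% of its si-NC level (log2 fold change -1.62, SE 0.07, edgeR adjusted p = 1.7e-11), with 663 to 777 reads in si-NC and 226 to 269 in si-KNSTRN libraries. Among epithelial markers, KRT7, KRT8 and KRT18 were abundant, KRT19 and EPCAM lay near 1 CPM (the read count scaled by library size and TMM factor) or lower, and CDH1 had no read in any library. Of 8 urothelial markers, 3 were tested, and KRT5 and UPK3A had no read in any library. PPARG rose (log2 fold change 0.64) and UPK1A fell from 0.832 to 0.175 CPM. UPK1A had 12 to 21 reads in si-NC and 2 to 5 in si-KNSTRN libraries, and only its si-NC libraries were past the count filter. Of 8 markers of blood, vessel, stroma and muscle cells, 3 were tested. Their summed level was 42.1 to 49.9 CPM in si-NC and 56.7 to 58.2 CPM in si-KNSTRN libraries, most of it from CD68, which rose (log2 fold change 0.48) and shares 92.6% of its 50-base windows with an overlapping transcript of another gene. COL1A1 fell from 13.3 to 11.1 CPM (log2 fold change -0.26, edgeR adjusted p = 0.025) and PECAM1, below 1 CPM, was not called (0.74, adjusted p = 0.085). PTPRC, CDH5, COL3A1 and DES were too low to test and CD3E had no read. The part of these shifts in the results below was not tested.

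Of the 10 genes, 6 were lower (CA9, EGLN3, VHL, ARNT, CA12 and EGLN1) and 2 higher (EPAS1 and, narrowly, HIF1A) in si-KNSTRN cells. HIF1AN and EGLN2 were not called. A call means an adjusted p under 0.05 in edgeR's quasi-likelihood test over all genes. Among all 12650 genes tested, 31.3% were called lower and 31.2% higher. The 3 libraries of each group did not overlap for 7 of the 10 genes, 1 of them higher and 6 lower, against 67.3% of all genes tested. The list was chosen with this contrast in view, so nothing is read from these counts. The median log2 fold change of the 10 genes was -0.39, beside -0.01 over all genes tested. Since RNA came from whole cultures, fewer expressing cells and less RNA per cell cannot be told apart.

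**Figure D1:**
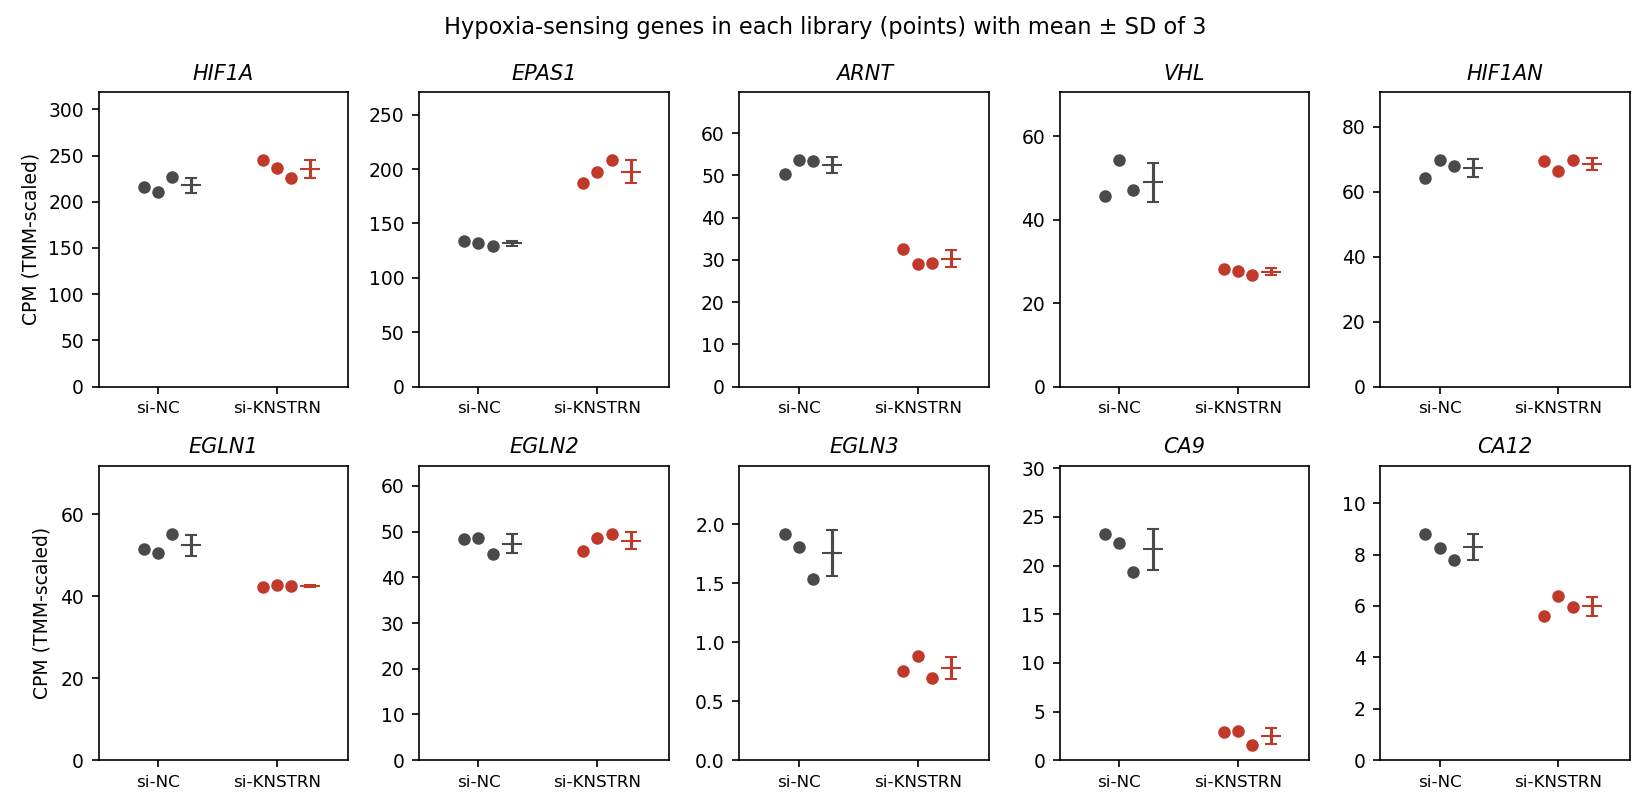
Level of each of the 10 genes (vertical axis, TMM-scaled CPM, starting at 0) in the 3 si-NC (grey) and 3 si-KNSTRN (red) libraries; points are libraries and bars show mean ± SD. CA9 lies between 19.3 and 23.3 CPM in si-NC and between 1.56 and 3.05 CPM in si-KNSTRN libraries, whereas the points of EGLN2, HIF1AN and HIF1A overlap between groups.

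The alpha subunit genes had the highest CPM of the 10 genes. HIF1A (chromosome 14, 61695513 to 61748258, GRCh38) encodes HIF-1 alpha, the alpha subunit found in most cell types. It stood at 216, 211 and 226 CPM in si-NC libraries 1 to 3 and at 245, 236 and 226 CPM in si-KNSTRN libraries 1 to 3. The lowest si-KNSTRN library lay just under the highest si-NC library, so the groups overlapped. The si-NC mean was 218 ± 8.0 CPM and the si-KNSTRN mean 236 ± 9.74 CPM (here and below ± is the SD of n = 3 libraries). This is a log2 fold change of 0.11 (SE 0.05). The call was lost in 6 of 14 other settings, among them upper-quartile scaling, where the log2 fold change was 0.07. Antisense genes overlap the HIF1A locus (HIF1A-AS1, HIF1A-AS2 and HIF1A-AS3), and whether reads were counted by strand was not given in the sources used here.

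EPAS1 (chromosome 2, 46297407 to 46386697) encodes HIF-2 alpha, which shares its partner and core sequence with HIF-1 alpha. Its level was 134, 132 and 129 CPM in si-NC libraries 1 to 3 and 187, 197 and 208 CPM in si-KNSTRN libraries 1 to 3. All si-KNSTRN libraries lay above all si-NC libraries. EPAS1 rose from 132 ± 2.36 to 198 ± 10.6 CPM, a log2 fold change of 0.58 (SE 0.05), and was the member with the clearest rise.

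ARNT (chromosome 1, 150809713 to 150876599), the gene of the beta subunit with which both alpha subunits pair, moved the other way. Its level was 50.2, 53.6 and 53.4 CPM in si-NC and 32.5, 29 and 29.3 CPM in si-KNSTRN libraries 1 to 3. The groups were separate, and the mean fell from 52.4 ± 1.87 to 30.3 ± 1.96 CPM (log2 fold change -0.79, SE 0.06). The si-KNSTRN level was 57.7% of that in si-NC cells. ARNT2, a related beta subunit gene, was low, at 1.43 ± 0.334 CPM in si-NC and 0.974 ± 0.0349 CPM in si-KNSTRN cells, and was not called (edgeR adjusted p = 0.057).

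VHL (chromosome 3, 10141778 to 10153667) encodes the substrate receptor of the ligase that removes hydroxylated HIF alpha. It had 45.6, 54.3 and 47.1 CPM in si-NC libraries and 28.2, 27.8 and 26.6 CPM in si-KNSTRN libraries. The si-NC libraries spread more widely (coefficient of variation 9.50%) than the si-KNSTRN libraries (2.95%), yet the lowest si-NC library was far above the highest si-KNSTRN library. The mean fell from 49.0 ± 4.65 to 27.6 ± 0.814 CPM, a log2 fold change of -0.83 (SE 0.07).

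HIF1AN (chromosome 10, 100535943 to 100559998), the asparagine hydroxylase gene, showed no such shift. Its values were 64.2, 69.7 and 67.9 CPM in si-NC and 69.4, 66.4 and 69.7 CPM in si-KNSTRN libraries. The groups overlapped, with a log2 fold change of 0.03 (SE 0.05) that changed sign with upper-quartile scaling.

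The 3 prolyl hydroxylase genes differed among themselves. EGLN1 (chromosome 1, 231363756 to 231422287) encodes PHD2, the main HIF prolyl hydroxylase of most oxygenated cells. It had 51.5, 50.4 and 55.3 CPM in si-NC and 42.3, 42.6 and 42.4 CPM in si-KNSTRN libraries. These groups were separate but close, and the mean fell from 52.4 ± 2.54 to 42.4 ± 0.175 CPM (log2 fold change -0.31, SE 0.06). EGLN2 (chromosome 19, 40799191 to 40808434), the gene of PHD1, had 48.5, 48.6 and 45.1 CPM in si-NC and 45.9, 48.7 and 49.6 CPM in si-KNSTRN libraries. Its groups overlapped, the log2 fold change was 0.02 (SE 0.06), and the sign turned with upper-quartile scaling. EGLN2 shares 70.9% of its 50-base windows with the read-through transcript RAB4B-EGLN2, so its reads may have been counted differently from those of its relatives.

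EGLN3 (chromosome 14, 33924227 to 33951074) encodes PHD3, whose gene is itself a well-known HIF target. It was the rarest of the 10, with 39, 29 and 28 reads in si-NC and 15, 16 and 13 reads in si-KNSTRN libraries. These counts correspond to 1.92, 1.80 and 1.54 CPM and to 0.758, 0.887 and 0.700 CPM. The groups were separate in spite of the low depth, and the mean fell from 1.75 ± 0.196 to 0.782 ± 0.0955 CPM (log2 fold change -1.16). Its standard error of 0.24 was the widest of the 10 genes.

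CA9 (chromosome 9, 35673928 to 35681159) encodes carbonic anhydrase IX, a cell-surface enzyme that hydrates carbon dioxide and helps tumour cells export acid, and is a standard marker of HIF activity. Its level was 23.3, 22.3 and 19.3 CPM in si-NC libraries 1 to 3. In si-KNSTRN libraries 1 to 3 it was 2.88, 3.05 and 1.56 CPM, from 57, 55 and 29 reads. The mean fell from 21.7 ± 2.06 to 2.50 ± 0.815 CPM, or 11.5% of the si-NC level (log2 fold change -3.11, SE 0.15). Library 3 of si-KNSTRN was the lowest, and the log2 fold change was -2.87 without it. Leaving out each library in turn gave values from -3.27 to -2.87. Ordered by log2 fold change, CA9 was at place 3 from the bottom of all 12650 genes tested, EGLN3 at place 270 and VHL at place 707.

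CA12 (chromosome 15, 63321378 to 63381846) encodes carbonic anhydrase XII, a second membrane enzyme with its active site outside the cell. It had 8.82, 8.27 and 7.80 CPM in si-NC and 5.61, 6.37 and 5.98 CPM in si-KNSTRN libraries. The groups were separate, and the mean fell from 8.30 ± 0.508 to 5.99 ± 0.380 CPM (log2 fold change -0.47, SE 0.11). CA12 thus kept 72.2% of its si-NC level, where CA9 kept 11.5%.

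**Figure D2:**
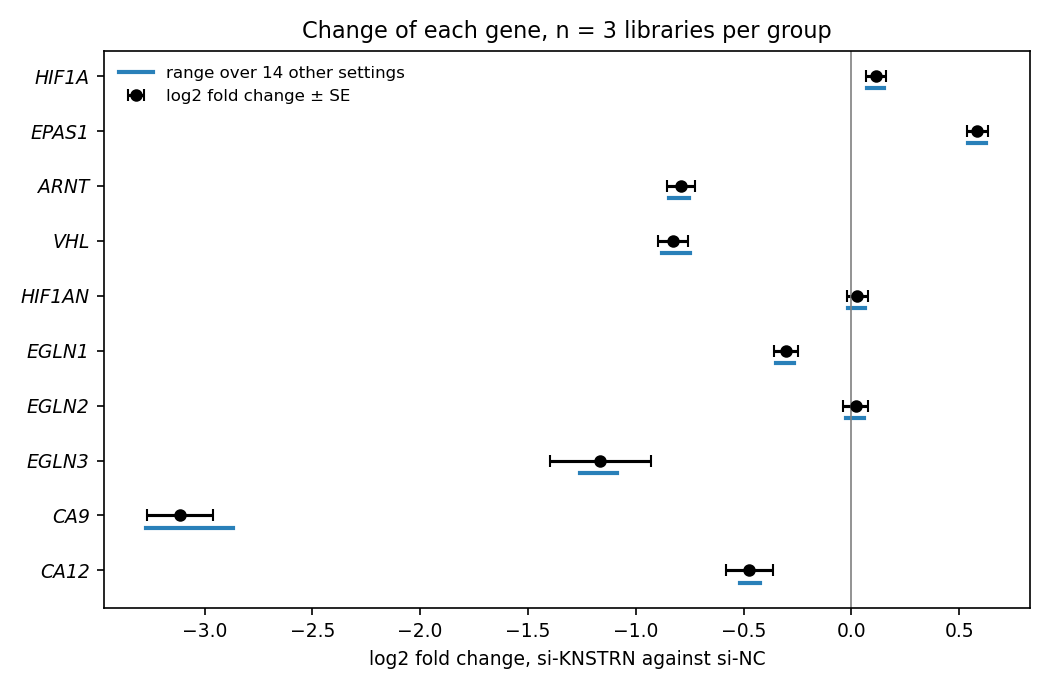
Log2 fold change of si-KNSTRN against si-NC for each of the 10 genes (horizontal axis) as black points with SE, and the range over 14 other analysis settings as blue lines. CA9 at -3.11 stands far to the left, EPAS1 at 0.58 is the only point well to the right of 0, and EGLN2, HIF1AN and HIF1A lie within 0.15 of 0.

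Promoter sequences show where the HIF core sequence occurs in these genes. RefSeq promoter windows (GRCh38.p14, 250 bases before to 50 bases after the annotated start) were found for 9 of the 10 genes, all but VHL. Both strands were searched for ACGTG and GCGTG, the core of the hypoxia response element. HIF1A and EGLN2 have 2 windows each in that set, of which 1 held a word. The CA9 window, chr9:35673678-35673977 on the plus strand, is printed whole because CA9 changed most. It holds ACGTG on the opposite strand, 18 to 14 bases before the start, shown in capitals as it reads on the gene's strand.
CA9: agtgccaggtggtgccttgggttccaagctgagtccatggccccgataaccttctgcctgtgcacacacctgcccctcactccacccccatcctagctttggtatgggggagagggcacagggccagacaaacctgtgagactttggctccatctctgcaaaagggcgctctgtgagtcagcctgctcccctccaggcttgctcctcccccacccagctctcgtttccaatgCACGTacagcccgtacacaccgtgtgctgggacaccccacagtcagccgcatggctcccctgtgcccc

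The other matches are shown as short stretches on each gene's strand, with the core in capitals, so that genes with and without a change can be set side by side. They lie at chr1:231422284-231422312 (minus strand) for EGLN1, chr19:40799130-40799159 (plus) for EGLN2, chr14:61695297-61695325 (plus) for HIF1A, chr2:46297278-46297306 (plus) for EPAS1, and chr15:63382064-63382092 and chr15:63381797-63381819 (minus) for CA12.
EGLN1: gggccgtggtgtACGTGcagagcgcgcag
EGLN2: gcggggcgcggtCACGTGcccaccgggcga
HIF1A: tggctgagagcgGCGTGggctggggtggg
EPAS1: gggcctgccggcGCGTGcccgcccacaca
CA12, upstream: gcggatctcaccCACGCctgccagcagct
CA12, downstream: ccaggctgcgcgCACGCggtccc

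ACGTG was thus in the windows of CA9, EGLN1 and EGLN2, where the EGLN2 match lies 49 to 44 bases before the start and reads ACGTG on both strands. EGLN1 holds it 13 to 9 bases before the start. GCGTG was in those of HIF1A, EPAS1 and CA12, and neither word in those of ARNT, HIF1AN and EGLN3. These words are common: of 15032 promoter windows of tested genes, 25.0% held ACGTG and 48.2% held GCGTG. The gene with the largest fall (CA9), one with a small fall (EGLN1) and one without a call (EGLN2) all held ACGTG, while EGLN3 held neither word in its window. A match is a description of these letters and does not show binding.

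Levels were compared between genes per kilobase of the longest coding transcript in GENCODE release 29 (CPM per kb). In si-NC cells the order was HIF1A (55.0 ± 2.02), EPAS1 (25.5 ± 0.457), EGLN2 (16.8 ± 0.711), CA9 (13.4 ± 1.28), VHL (13.1 ± 1.25), ARNT (10.7 ± 0.383), EGLN1 (7.38 ± 0.358), HIF1AN (5.17 ± 0.215), CA12 (1.29 ± 0.0793) and EGLN3 (0.616 ± 0.0688). CA9 and VHL overlapped in their libraries, and no other neighbours in this order did. In si-KNSTRN cells CA9 dropped from place 4 to place 8, at 1.54 ± 0.503 CPM per kb, where its libraries overlapped those of CA12 (0.934 ± 0.0593). HIF1A (59.6 ± 2.46), EPAS1 (38.3 ± 2.05), EGLN2 (17.0 ± 0.690) and VHL (7.38 ± 0.218) kept that order at the top. ARNT (6.19 ± 0.400) and EGLN1 (5.98 ± 0.0247) followed and overlapped each other. HIF1AN (5.26 ± 0.137) came next, and EGLN3 (0.274 ± 0.0335) stayed last. The order depends on the transcript length assumed. With the mean length of all coding transcripts, EGLN2 (46.3 ± 1.96 CPM per kb) stood above EPAS1 (42.3 ± 0.758) in si-NC cells. On that scale EPAS1 (63.4 ± 3.40) and HIF1A (62.6 ± 2.59) were the highest in si-KNSTRN cells, with overlapping libraries.

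**Figure D3:**
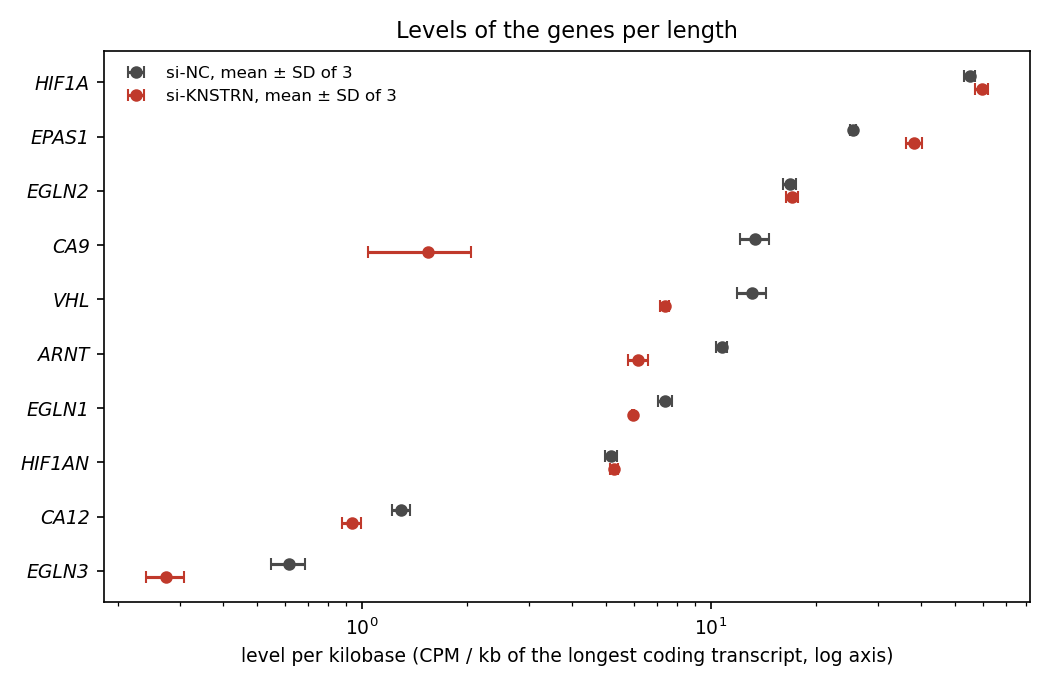
Level of each gene per kilobase (horizontal log axis, CPM per kb of the longest coding transcript) in si-NC (grey) and si-KNSTRN (red) cells, as mean ± SD of 3 libraries. HIF1A and EPAS1 lead in both groups, and CA9 is the gene whose place changes most, from 13.4 to 1.54 CPM per kb.

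Shares of these levels show how the makeup of each family differed. HIF1A made up 67.8%, 67.6% and 69.6% of the summed alpha subunit level per kb in si-NC libraries 1 to 3 and 63.1%, 61.0% and 58.6% in si-KNSTRN libraries 1 to 3, EPAS1 making up the rest. Each si-KNSTRN library had a lower HIF1A share than any si-NC library. The summed alpha level went from 80.6 ± 1.73 to 97.8 ± 0.415 CPM per kb. ARNT made up 11.7 ± 0.451% of the 3 HIF subunit genes in si-NC and 5.95 ± 0.343% in si-KNSTRN cells. RNA of the beta subunit was thus the smaller pool in both groups on this scale. With the mean transcript length the ARNT share was 13.2 ± 0.492% and 6.53 ± 0.429%, and EPAS1 held 42.2 ± 1.24% of the alpha sum in si-NC and 50.3 ± 2.37% in si-KNSTRN cells. Shares moved the same way with either length.

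Among the prolyl hydroxylase genes, EGLN2 held 67.7 ± 1.74% of the summed level per kb in si-NC and 73.1 ± 0.781% in si-KNSTRN cells. EGLN1 held 29.8 ± 1.96% and 25.7 ± 0.728%, and EGLN3 2.48 ± 0.236% and 1.18 ± 0.144%. The sum of the 3 genes was 24.8 ± 0.432 and 23.3 ± 0.705 CPM per kb, so that it moved far less than EGLN3 alone. These shares depend on the length assumed. With the mean transcript length EGLN2 held 84.7 ± 0.968% in si-NC and 88.0 ± 0.427% in si-KNSTRN cells. EGLN1 then held 13.5 ± 1.09% and 11.2 ± 0.383%. The windows that EGLN2 shares with RAB4B-EGLN2 also leave its share uncertain. CA9 held 91.3%, 91.5% and 90.8% of the summed CA9 and CA12 level in si-NC libraries 1 to 3. In si-KNSTRN libraries 1 to 3 it held 67.1%, 65.5% and 50.9%. The gain in the CA12 share came with a lower CA12 level, since CA9 fell more. With the mean transcript length the CA9 share was 87.2 ± 0.499% and 51.1 ± 9.19%. The summed level of both enzymes, with the longest transcript, went from 14.7 ± 1.35 to 2.48 ± 0.514 CPM per kb. No test is given for these shares, which rest on the values the genes were chosen with.

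**Figure D4:**
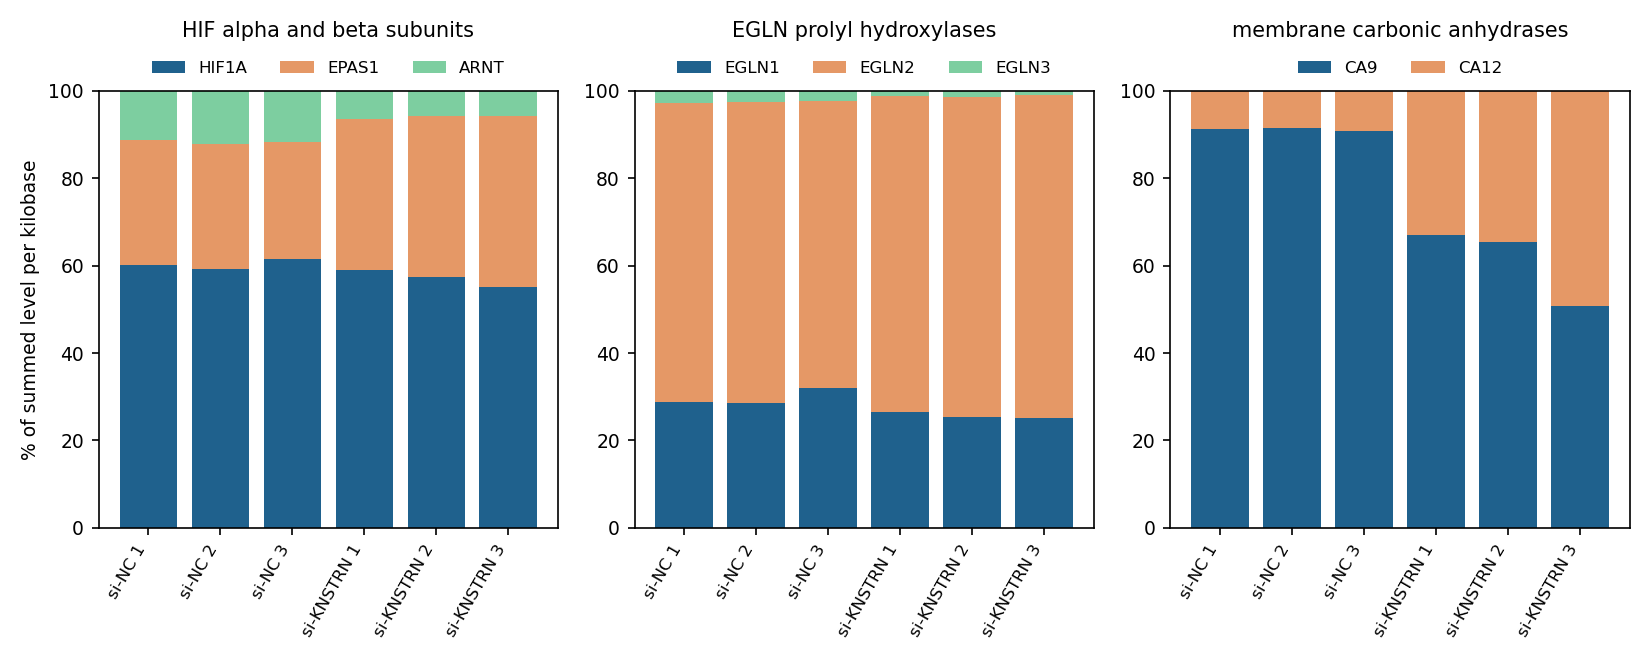
Share of each gene in the summed level per kilobase of its family (vertical axis, %) in each of the 6 libraries, for HIF subunits, prolyl hydroxylases and membrane carbonic anhydrases. The ARNT segment shrinks from 11.7% to 5.95% on average, and the CA9 segment from 91.2% to 61.1%, with si-KNSTRN library 3 lowest at 50.9%.

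Other genes of the pathway were counted in lists drawn up from general knowledge of HIF biology. Over 6 lists, 97 of 109 genes were tested, of which 23 were higher, 55 lower and 19 not called. Genes that cooperate with HIF or take part in its degradation had 8 of 20 higher (40.0%) and 4 lower (20.0%), beside 31.2% and 31.3% of all genes (median log2 fold change 0.04). The partners of VHL in its ligase were divided. The scaffold gene CUL2 rose from 75.7 ± 2.81 to 108 ± 2.17 CPM (log2 fold change 0.51, edgeR adjusted p = 9.0e-08) and the adaptor gene ELOC from 103 ± 2.18 to 145 ± 6.78 CPM (0.50, adjusted p = 1.4e-07). ELOB rose by 0.18 on the log2 scale and the RING subunit gene RBX1 fell by 0.22. NAA10, an acetyltransferase gene, rose from 104 ± 6.03 to 152 ± 7.45 CPM. P4HTM, a membrane-bound prolyl hydroxylase gene, fell from 24.8 ± 0.926 to 13.5 ± 1.21 CPM (-0.89, adjusted p = 7.2e-08). CUL2 overlaps the tested gene CREM, and NAA10 shares 25.1% of its 50-base windows with ARHGAP4. EP300 and CREBBP, the coactivator genes that HIF1AN's reaction keeps away, were not called (log2 fold changes -0.05 and 0.12). ARNT2, ELOB, RBX1, EP300 and CREBBP fall outside the naming rule and were singled out after their values were seen, as were SLC16A3, SLC16A7, HK1 and HK2 below.

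Of 13 other carbonic anhydrase genes, 6 were tested, and the remaining 7 had at most 9 reads in a library. CA2, a cytosolic enzyme gene, rose from 1.65 ± 0.219 to 2.64 ± 0.184 CPM (log2 fold change 0.69, SE 0.18, edgeR adjusted p = 0.0037). CA11, a family member known to lack enzyme activity, fell from 4.25 ± 0.538 to 1.84 ± 0.165 CPM (-1.20, SE 0.17, adjusted p = 1.1e-05). CA3 fell from 0.764 ± 0.0768 to 0.351 ± 0.160 CPM (-1.10, SE 0.38, adjusted p = 0.018). It had 11 to 17 reads in si-NC and 3 to 9 in si-KNSTRN libraries. Only its si-NC libraries were past the count filter, so its call is given as a description alone. That call was lost in DESeq2 (adjusted p = 0.075) and when si-NC library 1 or si-KNSTRN library 2 was left out. CA13 had a log2 fold change of 0.26 and was not called (adjusted p = 0.13). In all, 1 of 6 was called higher (16.7%) and 2 lower (33.3%, CA3 among them), beside 31.2% and 31.3% of all genes.

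Acid and bicarbonate transporters, which share the work of pH control with CA9 and CA12, numbered 13, of which 4 were higher (30.8%) and 3 lower (23.1%), shares not far from those of all genes (31.2% and 31.3%, median log2 fold change 0.06). SLC4A11 rose from 5.08 ± 0.137 to 14.1 ± 1.42 CPM (1.47, SE 0.11, edgeR adjusted p = 5.5e-09). The lactate transporter gene SLC16A1 rose by a log2 value of 0.54 (SE 0.05). Its relatives SLC16A3 and SLC16A7 were called lower. SLC16A3 fell from 963 ± 63.0 to 762 ± 12.7 CPM (-0.34, SE 0.05) and SLC16A7 from 4.37 ± 0.601 to 3.04 ± 0.267 CPM (-0.52, SE 0.15). The anion exchanger gene SLC4A3 fell by 0.33 (SE 0.05). SLC4A11 overlaps the tested gene ITPA.

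Most of the HIF targets in these lists fell along with CA9 and EGLN3. Of 58 tested in 3 lists, 46 were called lower (79.3%) and 10 higher (17.2%), beside 31.3% and 31.2% of all genes, and their median log2 fold change was -0.67. The lists were written with earlier results of these libraries known, so the counts are not independent evidence of a direction. Library 3 of si-KNSTRN, which stood apart, was the lowest of its group for 39 of the 46 targets called lower, as it was for CA9 and EGLN3. Without it 45 targets were lower and 10 higher, and the log2 fold change was -1.09 for EGLN3 and -2.50 for PPFIA4, a target described below. Glucose transport and glycolysis targets had 17 of 20 lower, 2 higher and 1 not called (median -0.59). ALDOC, an aldolase gene, fell from 68.8 ± 4.23 to 17.1 ± 3.01 CPM, and PFKFB4, a regulator of glycolytic flux, from 66.2 ± 4.06 to 20.4 ± 2.04 CPM. PDK1, a pyruvate dehydrogenase kinase gene, fell by 1.25 on the log2 scale, the enolase gene ENO2 by 1.13 and TPI1 by 0.81. HK1 and HK2, the hexokinase genes, were the 2 that rose, by log2 fold changes of 0.11 and 0.23. TPI1 shares 20.8% of its 50-base windows with other genes, mostly a pseudogene.

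Targets of mitochondria, stress and transcription had 20 of 25 lower (80.0%), 4 higher (16.0%) and 1 not called (median -0.81). Of all genes tested, 31.3% were lower and 31.2% higher. PPFIA4 fell most, from 40.5 ± 0.819 to 5.99 ± 2.03 CPM (log2 fold change -2.75, SE 0.14, edgeR adjusted p = 7.5e-11). The mTORC1 inhibitor gene DDIT4 fell from 423 ± 30.6 to 136 ± 10.9 CPM, and the mitophagy receptor gene BNIP3 from 263 ± 9.0 to 119 ± 17.2 CPM. Further genes fell with log2 fold changes from -1.69 (TMEM45A) to -1.11 (VLDLR), among them the lipid droplet gene HILPDA (-1.35), the MYC antagonist gene MXI1 (-1.35), INSIG2 (-1.29), FAM162A (-1.24), AK4 (-1.21) and NDRG1 (-1.20). HMOX1, the heme oxygenase gene, which is also a target of other stress factors, was 1 of the 4 that went the opposite way. It rose from 29.7 ± 1.74 to 150 ± 28.9 CPM (2.33, SE 0.11, edgeR adjusted p = 2.0e-11).

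Targets of vessels and matrix had 9 of 13 lower (69.2%) and 4 higher (30.8%), with none left uncalled (median -0.56). The share called higher was thus close to that of all genes (31.2%), while 31.3% of all genes were lower. VEGFA, the main angiogenic growth factor gene, fell from 204 ± 5.26 to 111 ± 11.2 CPM (-0.88, edgeR adjusted p = 3.2e-09) and the vasodilator peptide gene ADM from 68.1 ± 7.81 to 30.8 ± 3.00 CPM. LOX and LOXL2, which crosslink collagen, fell by 1.31 and 0.69 on the log2 scale. PLAUR, the urokinase receptor gene, rose from 110 ± 3.14 to 206 ± 4.42 CPM (0.90, adjusted p = 6.4e-11). LOX overlaps the tested gene SRFBP1, PFKFB4 overlaps UCN2, TPI1 overlaps SPSB2, BNIP3 overlaps PPP2R2D and FAM162A overlaps WDR5B, and without strand information reads there cannot be told apart.

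**Figure D5:**
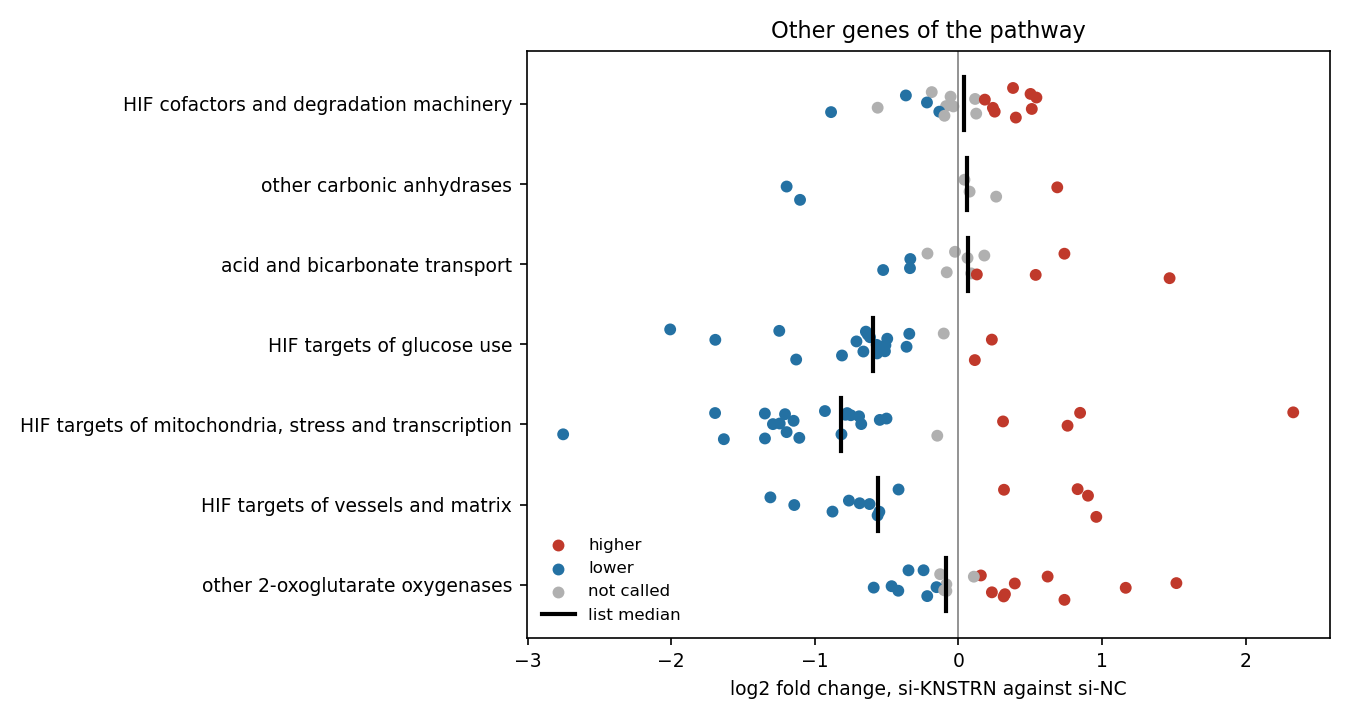
Log2 fold change of si-KNSTRN against si-NC (horizontal axis) for every tested gene of 7 lists, with genes called higher in red, lower in blue and not called in grey, and the list median as a black bar. The 3 lists of HIF targets have medians of -0.59, -0.81 and -0.56, whereas the lists of cofactors, other carbonic anhydrases and transporters have medians of 0.04, 0.06 and 0.06.

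Enzymes that use oxygen and 2-oxoglutarate as the EGLN proteins do, and that were in no other list, numbered 21 tested, of which 9 rose (42.9%), 7 fell (33.3%) and 5 were not called, beside 31.2% and 31.3% of all genes (median -0.08). A further 8 enzymes of this class stood in the lists above (P4HTM, KDM3A, KDM4B, KDM4C, P4HA1, P4HA2, PLOD1 and PLOD2), of which 7 fell and KDM4C was not called. With these, counted after their values were seen, 9 of 29 rose and 14 fell. The histone demethylase gene KDM7A rose from 3.62 ± 0.151 to 10.4 ± 1.63 CPM (1.52, SE 0.13, edgeR adjusted p = 4.8e-08), and P4HA3 (1.17), JMJD6 (0.74) and RIOX1 (0.62) also rose. KDM6B, another demethylase gene, fell by 0.59 on the log2 scale. RIOX1, JMJD6, KDM6B and P4HA3 overlap other tested genes. The members of this family among the 10 genes lay within or below this range, from -1.16 for EGLN3 to 0.03 for HIF1AN.

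The core sequence was also counted in the promoters of HIF targets. Of 49 tested targets with a RefSeq promoter, 71.4% held ACGTG in at least 1 window and 69.4% held GCGTG, beside 32.1% and 58.4% of 10272 tested genes. The targets were listed for their known control by HIF, so an excess of its core sequence is no evidence from these libraries. A gene with more windows also had more chances to hold a word. Targets called lower (68.4% of 38 with ACGTG) and higher (77.8% of 9) both held the word often. Among the 10 genes, 3 of 9 held ACGTG (33.3%).

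Words of the 3' untranslated region (UTR) were examined because genes with TGAGTA there were more often lower in these libraries. In the longest coding transcript, 40.3% of 3623 genes with the word were called lower and 23.2% higher, beside 27.7% and 35.0% of 8417 genes without it. The word was picked with this contrast in view, so these shares describe it and are not evidence for it. Genes with and without the word were not matched for 3' UTR length. The word was searched on the transcript strand only, and 30.1% of the 12040 tested genes whose 3' UTR had 50 bases or more held it. Of the 10 genes, 5 held it, at 8 sites in all. VHL had 3 sites and ARNT 2, whereas EGLN1, HIF1A and HIF1AN had 1 each. CA9, EGLN3, CA12, EPAS1 and EGLN2 had none, among them the genes with the largest fall and with the clearest rise. The sites of the pair of genes with most of them are shown with the word in capitals.
VHL, base 855 of the 3' UTR: gctaaatgTGAGTAtttctgtt
VHL, base 1040: aatcctccTGAGTAgctgggat
VHL, base 2046: gtgagccaTGAGTAtgccactg
ARNT, base 515: gaaacatgTGAGTAagtgagag
ARNT, base 2140: acacattcTGAGTAacatcagc

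The word was thus present in VHL and ARNT, which fell by 0.83 and 0.79 on the log2 scale, in EGLN1, which fell by 0.31, and in HIF1A and HIF1AN, which had log2 fold changes of 0.11 and 0.03. The 3' UTR lengths of the 10 genes differed widely, from 134 bases in CA9 to 11861 in HIF1AN, and a longer region holds more words. The part of these sites in the changes was not tested.

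Genes with the most similar profile were sought for the 3 members that changed most, by the root mean square distance between centred log2 CPM values over the 6 libraries. For CA9 these were PPFIA4 (distance 0.195, log2 fold change -2.75), PPL (0.427, -2.79), which encodes periplakin, and the potassium channel subunit gene KCNS1 (0.470, -2.35). The nearest of them, PPFIA4, was also in the list of HIF targets. For EGLN3 they were H6PD (distance 0.0480), EFNA3 (0.0621), an ephrin gene, and CILK1 (0.0648), which had log2 fold changes of -1.08, -1.17 and -1.22. For VHL they were TTC30B (0.0562), TNS2 (0.0579) and TMEM139 (0.0588), with -0.73, -0.81 and -0.76. EFNA3 shares 46.4% of its 50-base windows with another gene and TTC30B shares 15.8% with TTC30A. With 2 groups of 3 libraries, such profiles mostly reflect the size of the group difference.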

How the data were processed

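Per the file headers and values, the deposited table holds raw read counts by gene symbol, as whole numbers, for 3 si-NC and 3 si-KNSTRN libraries of T24 cells. The submitters' processing notes name HISAT2 2.0.1, featureCounts, fastp 0.20.0 and FastQC 0.11.5, and the build GRCh38. The strand setting and the annotation were not given in the sources used here. Group and replicate came from the sample titles.

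The members and lists were chosen with earlier results of these data known. edgeR 4.0.16 in R 4.3.3 was run across all genes with its count filter (minimum count 10), TMM factors and a two-sided quasi-likelihood F test, with Benjamini-Hochberg adjustment and calls at an adjusted p under 0.05. Standard errors were taken as the log2 fold change over the square root of F. The fit was also run on simulated counts in which far fewer genes changed than were called here. That run cannot show how the scaling does when so many genes change, and nothing is drawn from it. Replicate pairs differed by a chi-square per degree of freedom of 2.16 to 10.3, so none was merged. If the replicates are not separate cultures, p-values measure technical spread. A count of 3 reads, the most a count of 0 allows, is 0.146 to 0.183 CPM, for counting error only.

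Named genes were the 10 members, KNSTRN, in each list the 4 tested genes with the smallest p and those with an absolute log2 fold change of at least 1, and the 3 nearest profiles (average log2 CPM of at least 2, pseudocount 0.01 CPM) of the 3 members that changed most. A gene that this rule names is not reported here. Positions and promoters came from RefSeq (GRCh38.p14) and transcripts from GENCODE release 29. The symbols of 18767 of 20442 genes had a coding transcript there. Alternatives were DESeq2-type (RLE) factors, library size alone, upper-quartile factors, DESeq2 1.42.0, limma-voom (limma 3.58.1), other filters, a stricter threshold, a replicate block and each library left out. Python 3.11.15, pandas 2.3.3, numpy 2.4.6 and matplotlib 3.10.9 were used.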

Additional observations from a re-analysis of the deposited data

How the results depend on the processing

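The 6 members called lower stayed 6 in every setting, and EPAS1, ARNT, VHL, EGLN1, EGLN3, CA9 and CA12 kept direction and call in all 14 other settings. Members called higher dropped from 2 to 1, through HIF1A, with upper-quartile factors, with the replicate block, at an adjusted p under 0.01 and on leaving out library 1 or 2 of either group (1 to 2 over all libraries left out). The log2 fold change of HIF1A ran from 0.07 to 0.15 over the 14 settings, and the cause was not tested. EGLN2 and HIF1AN, not called in any, changed sign with upper-quartile factors (-0.023 and -0.016) and with single libraries left out (EGLN2 -0.016 to 0.054, HIF1AN -0.0074 to 0.052). EPCAM, at under 1 CPM, had a log2 fold change of -0.05 that ran from -0.38 to 0.20 with single libraries left out, and was 0.12 without si-NC library 3. Pathway genes called lower ran from 52 to 58 and higher from 21 to 25. Among other carbonic anhydrases, the lower count fell from 2 to 1 in DESeq2, with CPM of at least 1, at an adjusted p under 0.01 and without si-NC library 1 or si-KNSTRN library 2, and the higher count rose from 1 to 2 without a filter and without si-KNSTRN library 2. The 2 glucose targets called higher became 1 with upper-quartile factors, at an adjusted p under 0.01 and without any single si-NC library or si-KNSTRN library 2. The gene behind the changed lower count of other carbonic anhydrases was CA3, which was not tested with CPM of at least 1. At an adjusted p under 0.05, COL1A1 lost its call in DESeq2 and when si-KNSTRN library 3, si-NC library 1 or si-NC library 2 was left out, and it was not called at an adjusted p under 0.01. Same-numbered libraries did not deviate together (correlations -0.061, 0.062 and -0.032), and not every library correlated best with its own number. No pairing by number was thus seen, though with 3 libraries per group these correlations cannot exclude one. With the replicate block 3831 genes were higher and 3857 lower, against 3946 and 3959. Depth limits EGLN3, CA3 and the untested genes.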
